A study of Mus musculus with 6 samples.

Results

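Homeobox genes outside the Hox clusters are described in muscle and epithelial cells sorted from the embryonic mouse trachea. Members were the genes of the deposited count table whose symbols carry one of 20 family names followed by a digit (Irx, Nkx, Pitx, Meis, Pbx, Lhx, Dlx, Msx, Pax, Barx, Cux, Gsc, Isl, Alx, Meox, Satb, Tshz, Otx, Onecut and the family of Six4), together with Hhex, Hopx, Tgif1, Tgif2, Pknox1 and Pknox2. Nkx2-1 and symbols ending in os, op or Rik were left out. This gave 94 of 23478 genes, of which 6 (Dlx1as, Dlx6as2, Dlx6os1, Otx2os1, Pax6os1 and Six3os1) are not protein-coding. The embryos, at embryonic day 13.5, were labelled Bmp4 f/f; gamma SMA eGFP: all libraries carried floxed Bmp4 and the eGFP reporter of gamma smooth muscle actin, and no Cre is named. Muscle cells were sorted by GFP and epithelial cells by an antibody to Epcam, with 3 libraries of each, titled as controls. GFP marks whatever cells switch on the reporter, and the labels do not say whether the libraries came from separate embryos or litters, so the p-values measure the spread between these samples, which may be technical.

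A homeodomain is a DNA-binding domain that recognises short AT-rich sites, and genes that carry one set position and cell identity in the embryo. The TALE class has a loop extension in the domain. Its Meis, Pbx and Pknox proteins bind DNA together with Hox proteins and with each other, its Tgif proteins repress transcription and bind Smads, and its Irx proteins pattern neural, cardiac and lung tissue. Other classes carry a second domain beside the homeodomain: LIM domains in Lhx and Isl, a paired domain in Pax, cut domains in Cux, Satb and Onecut, and zinc fingers in Tshz. Some Pax proteins keep only part of a homeodomain or none.

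Total counts per library ranged from 11847432 to 54848820. The 12 smooth muscle and 12 epithelial marker genes all passed the test in the direction of their label. Muscle replicate 2 had less smooth muscle RNA, with a summed 5941 CPM (counts scaled to library size) over those markers against 23339 and 25482 in replicates 1 and 3. 3 libraries, muscle replicate 2 and epithelium replicates 2 and 3, had counts in 73.3% to 78.8% of 1456 olfactory and vomeronasal receptor genes, which belong to sensory neurons, against 3.02% to 17.5% in the other 3. These are called background counts here. Skeletal muscle genes differed within the muscle group: Myog, a regulator of skeletal myogenesis, had 245 CPM in muscle replicate 1, 1.20 in replicate 2 and 17.3 in replicate 3.

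Both Irx genes shown here fell on the epithelial side and both Meis genes on the muscle side. For these 4 members, which passed the test, the sequences around a start site are shown. They run from 250 bases before to 50 bases after the first start site listed in RefSeq (GRCm38.p6), 5′ to 3′ on the strand of the gene: Irx2 at chr13:72628570-72628869 on the plus strand, Irx3 at chr8:91801605-91801904, Meis1 at chr11:19018920-19019219 and Meis2 at chr2:116064570-116064869, the last 3 on the minus strand. By the gene bounds of GENCODE vM21, the windows of Irx3 (gene at chr8:91798525-91802067) and Meis2 (chr2:115863064-116065839) lie inside the gene, not upstream of it. Capitals mark matches, on either strand, to 6 motifs that do not overlap here.
Irx2: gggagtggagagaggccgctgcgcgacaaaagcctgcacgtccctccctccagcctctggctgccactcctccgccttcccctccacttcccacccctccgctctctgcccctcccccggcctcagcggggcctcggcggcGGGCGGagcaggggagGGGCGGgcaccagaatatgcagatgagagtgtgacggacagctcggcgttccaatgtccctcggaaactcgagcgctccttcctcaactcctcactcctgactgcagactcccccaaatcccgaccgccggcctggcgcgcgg
Irx3: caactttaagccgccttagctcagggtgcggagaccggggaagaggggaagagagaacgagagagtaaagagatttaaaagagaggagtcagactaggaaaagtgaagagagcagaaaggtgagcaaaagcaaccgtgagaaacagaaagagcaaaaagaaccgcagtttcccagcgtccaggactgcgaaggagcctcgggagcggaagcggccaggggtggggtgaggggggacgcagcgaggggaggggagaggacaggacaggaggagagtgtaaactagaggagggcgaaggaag
Meis1: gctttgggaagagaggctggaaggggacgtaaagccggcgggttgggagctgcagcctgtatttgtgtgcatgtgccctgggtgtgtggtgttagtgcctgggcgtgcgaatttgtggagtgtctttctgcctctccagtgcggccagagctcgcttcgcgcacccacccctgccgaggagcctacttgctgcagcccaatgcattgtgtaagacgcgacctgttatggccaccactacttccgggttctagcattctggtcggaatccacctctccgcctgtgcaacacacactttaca
Meis2: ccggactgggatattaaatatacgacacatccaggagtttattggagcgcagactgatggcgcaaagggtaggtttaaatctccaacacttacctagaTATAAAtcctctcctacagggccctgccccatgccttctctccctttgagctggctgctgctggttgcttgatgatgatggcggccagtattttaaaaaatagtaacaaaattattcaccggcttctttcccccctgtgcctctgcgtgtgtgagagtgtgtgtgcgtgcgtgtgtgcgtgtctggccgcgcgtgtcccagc

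The motifs searched were TGACAG (the core of Meis, Pknox and Tgif sites), TGATTNAT (Pbx with Hox), TAATCC (Otx and Pitx), CTTTGAT (Tcf and Lef), TATAAA (a core promoter element) and GGGCGG (GC box). Of 32851 RefSeq promoter windows of this length, 19.2%, 3.22%, 7.06%, 3.73%, 13.6% and 35.7% held them, in that order. Irx2 held 2 GC boxes and Meis2 held 1 TATAAA, and the windows of Irx3 and Meis1 held none of the 6 motifs. G and C made up 69.0% of the Irx2 window, 56.0% of Irx3, 58.3% of Meis1 and 51.0% of Meis2, against a median of 52.7% over all windows. The Irx2 window held 25 CpG pairs, Irx3 14, Meis1 15 and Meis2 13, against a median of 7.

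Of the 94 members, 85 passed the filter on low counts and were tested, and 18 of these passed the test, meaning a quasi-likelihood p from edgeR that was under 0.05 after adjustment. Of all 19375 genes tested, 10.7% passed. 10 members were higher in muscle, among them Meis1, Meis2, Pbx3, Pknox2, Tshz1, Tshz2, Tshz3 and Lhx6, where the share over all genes was 6.58%. 8 were higher in epithelium (Otx1, Irx2, Irx3, Irx5, Irx6, Isl1, Six4 and Hhex), against 4.11% over all genes. The median log2 fold change of muscle over epithelium was 0.03 over the tested members and -0.10 over all tested genes. Among the 41 members whose average log2 CPM was 2 or more, 17 passed, against 16.2% of all genes at that level. Of the 44 lower members 1 passed, Irx6. In 34 members the groups did not overlap, 19 of them higher in muscle and 15 in epithelium, against 26.9%, 16.4% and 10.5% of all tested genes. Without muscle replicate 1 or muscle replicate 3, 6 members were higher in muscle, and without muscle replicate 3 or epithelium replicate 1, 3 and 4 were higher in epithelium. In these sorted bulk samples, fewer cells of a type and less RNA per cell cannot be told apart.

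**Figure D1:**
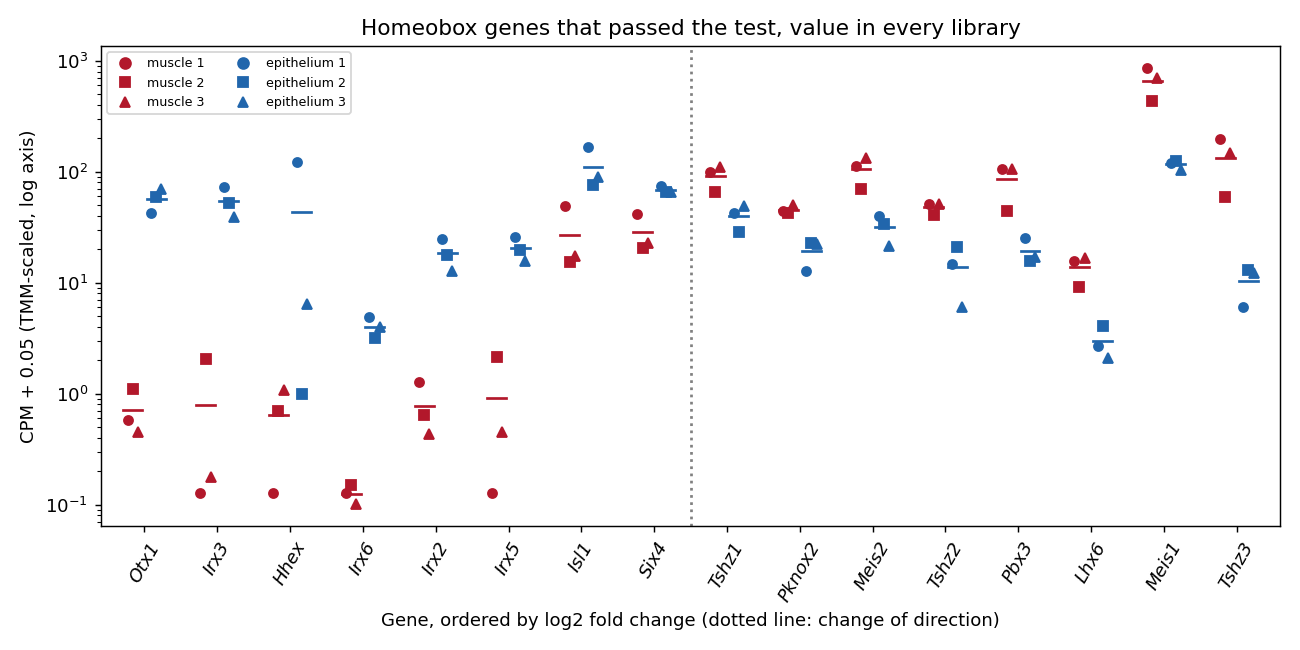
CPM + 0.05 on a log axis in the 3 muscle (red) and 3 epithelium (blue) libraries for 16 homeobox genes that passed the test, ordered by log2 fold change, with group means as bars. Otx1 and the Irx genes lie near or under 2 CPM in muscle, Hhex is high in 1 epithelium library alone, and Meis1 is well expressed in both populations.

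Of the 6 Irx genes, 4 were higher in epithelium. Irx3 had 0.076, 2.00 and 0.126 CPM in muscle and 73.6, 51.9 and 38.7 in epithelium (values here and below are in the order of replicates 1, 2 and 3). Irx5 had 0.076, 2.10 and 0.404 CPM in muscle and 25.8, 19.6 and 15.7 in epithelium, and Irx2 had 1.22, 0.599 and 0.379 against 24.7, 17.6 and 12.7. In all 3 genes every epithelial library was far above every muscle library, and epithelium replicate 1 was the highest. Log2 fold changes were -6.35 ± 1.02 (SE, adjusted p = 0.0049, edgeR) for Irx3, -4.60 ± 0.96 (0.016) for Irx5 and -4.65 ± 0.60 (0.0016) for Irx2. Without muscle replicate 3 the adjusted p of Irx5 was 0.066. Irx6 had 2 counts in each muscle library against 263, 47 and 104 in epithelium, and with 3 counts per library taken as the floor it was at least 35.1-fold lower in muscle. When libraries were left out in turn, Irx6 passed only without muscle replicate 2 (adjusted p otherwise up to 0.19).

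The remaining Irx genes were low. Irx1 had 0.532, 0 and 0.101 CPM in muscle and 3.87, 3.07 and 3.49 in epithelium. Although these values lie apart, Irx1 did not pass (log2 fold change -4.01 ± 1.78, edgeR adjusted p = 0.23). Irx4, a gene of heart ventricles, had at most 2.60 CPM, reached in muscle replicate 2, a library with many background counts, and 0 in the other muscle libraries.

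The Irx genes lie in paired clusters in the mouse genome, and position was not part of how they were chosen. In mm10 (GENCODE vM21, GRCm38), Irx3 lies at chr8:91798525-91802067, Irx5 at chr8:92357625-92376286 and Irx6 at chr8:92674288-92680956. The gaps between them are 555557 and 298001 bases. All members of this cluster passed in the same direction. In the other cluster Irx2 (chr13:72628820-72634198) passed, while Irx1, 665096 bases away, and Irx4, 626280 bases away, did not. The noncoding gene 4933436C20Rik (Crnde in RefSeq) lies 1504 bases from Irx5. It had 0, 2 and 2 counts in muscle and 19.9, 3.21 and 10.9 CPM in epithelium. With the same floor of 3 counts per library, it was at least 100.1-fold lower in muscle. The noncoding gene Gm20554, 255 bases from Irx2 on the other strand, had 0.608, 4.74 and 0.051 CPM in muscle and 11.6, 11.6 and 7.25 in epithelium (log2 fold change -2.50 ± 1.23, edgeR adjusted p = 0.30). Fto, 130085 bases from Irx3 and known to hold enhancers that act on Irx3, did not pass (log2 fold change 0.64 ± 0.33, adjusted p = 0.33). Mmp2, a matrix protease gene 146334 bases from Irx6, went the other way and was higher in muscle (3.52 ± 0.50, adjusted p = 0.0026).

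The Meis, Pbx and Pknox genes, whose proteins act as partners of Hox proteins, were detected in both populations, and 5 of the 9, among them Meis1, Meis2, Pbx3 and Pknox2, were higher in muscle. Meis1 had 865, 430.5 and 692 CPM in muscle and 119, 125 and 105 in epithelium. Pbx3 had 105, 44.7 and 107 CPM against 25.0, 15.8 and 17.0. The groups were well apart in these genes, with muscle replicate 2 the lowest of its group, as it was in 10 of the 10 members higher in muscle. How often this holds over all genes was not computed, so it is not shown to be particular to the members. CPM summed over all genes was also lowest there, at 1192780, 882988 and 1247530 in muscle replicates 1, 2 and 3. Log2 fold changes were 2.51 ± 0.31 (SE, adjusted p = 0.0013, edgeR) for Meis1 and 2.15 ± 0.37 (0.0068) for Pbx3.

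Meis2 (1.74 ± 0.33, edgeR adjusted p = 0.010) and Pknox2 (1.25 ± 0.28, 0.022) also passed. Pknox2 had 44.1, 42.2 and 50.5 CPM in muscle and 12.8, 22.9 and 22.1 in epithelium, and lost its call without replicate 1 or 3 of either population (adjusted p up to 0.069). Their paralogs did not pass although the groups did not overlap: Meis3 (1.26 ± 0.39, adjusted p = 0.081), Pknox1 (0.85 ± 0.27, 0.082) and Pbx2 (0.73 ± 0.30, 0.19). Pbx4 was the one Pbx gene with lower values in muscle, with 4.94, 3.10 and 2.33 CPM against 11.4, 6.75 and 8.83 in epithelium (-1.38 ± 0.58, adjusted p = 0.20).

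The Tgif genes showed no difference beyond their spread. Tgif1 had 183, 76.8 and 131 CPM in muscle and 142, 128 and 90.9 in epithelium, and Tgif2 had 79.7, 40.4 and 67.5 against 86.2, 59.4 and 66.7. The groups overlapped in both, and the edgeR adjusted p was 0.94 and 0.90.

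**Figure D2:**
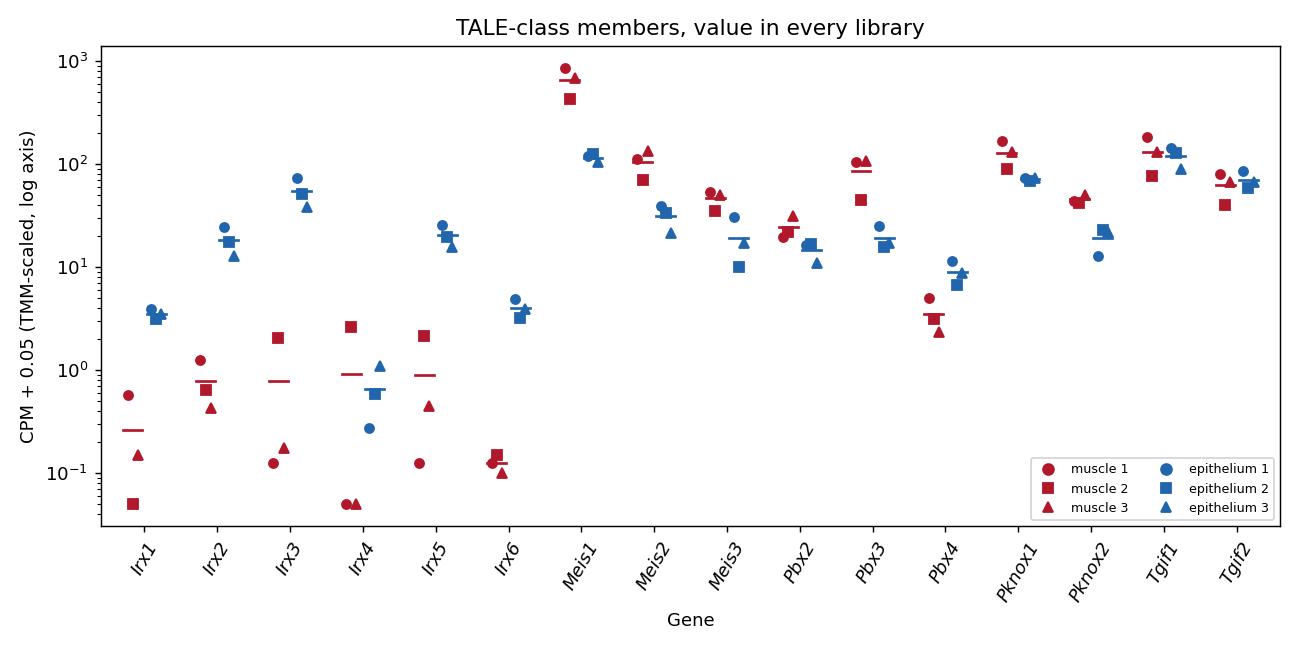
CPM + 0.05 on a log axis for 16 members of the TALE class in the 3 muscle (red) and 3 epithelium (blue) libraries, with group means as bars. Irx1, Irx2, Irx3, Irx5 and Irx6 are separated toward epithelium, Meis1, Meis2, Pbx3 and Pknox2 toward muscle, and the Tgif genes overlap.

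In all, 9 of the 17 TALE genes passed, 5 toward muscle and 4 toward epithelium, where the shares over all tested genes were 6.58% and 4.11%. Most TALE genes had an average log2 CPM of 2 or more, where 16.2% of all genes passed in either direction. Levels between genes were compared as mean CPM per kilobase of exon, using the union of GENCODE exons. On that scale Meis1 (62.9 ± 20.8, SD, n = 3) was the most abundant member in muscle, and the next of those described here were Tshz3 (24.6 ± 12.8), Tgif1 (23.2 ± 9.48) and Pknox1 (18.8). In epithelium the order of CPM per kilobase was Isl1 (27.9 ± 12.3), Tgif1 (21.4 ± 4.72), Irx3 (19.8 ± 6.38), Tgif2 (18.5 ± 3.62) and Meis1 (11.0 ± 1.01). Within each list, neighbours in the order differed by less than their summed SDs, apart from Meis1 and Tshz3 in muscle and Tgif2 and Meis1 in epithelium.

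All 3 Tshz genes, which encode zinc-finger homeobox repressors, were higher in muscle. Tshz3, required for smooth muscle differentiation in the ureter, had 197, 59.4 and 146 CPM in muscle and 6.02, 12.9 and 12.1 in epithelium. At 3.71 ± 0.50 (SE, adjusted p = 0.0019, edgeR), the log2 fold change of Tshz3 was the largest toward muscle among the members that passed. Tshz2 had 50.7, 40.6 and 51.7 CPM against 14.6, 21.1 and 5.97 (1.78 ± 0.41, adjusted p = 0.025), and Tshz1 had 100.4, 65.6 and 111 CPM against 42.7, 28.7 and 49.1 (1.20 ± 0.30, 0.033). No Tshz gene had overlapping groups. Tshz2 lost its call without muscle replicate 1 or muscle replicate 3 (adjusted p up to 0.056), and Tshz1 in every fit that left out a library except the one without muscle replicate 2 (up to 0.12). The noncoding gene A630075F10Rik overlaps Tshz2 on the other strand. It had at most 2.80 CPM, and reads of the pair cannot be told apart without strand.

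Of the paired-class genes, Otx1 separated the populations toward epithelium. Otx1, known from brain and sense organ development, had 0.532, 1.05 and 0.404 CPM in muscle and 42.3, 59.3 and 69.4 in epithelium. No other member had a smaller adjusted p (9.8e-05, edgeR, for a log2 fold change of -6.47 ± 0.44). Its paralog Otx2 did not exceed 5.64 CPM, reached in muscle replicate 2, and was at 0 in epithelium replicate 1.

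Other paired-class genes described here did not pass. Pitx1, a hindlimb and foregut gene, had 2.01, 0.949 and 0.455 CPM in muscle and 13.2, 8.96 and 3.23 in epithelium (-2.89 ± 0.90, edgeR adjusted p = 0.081). Pax9, a gene of pharyngeal endoderm, had 0.874, 3.54 and 0.202 CPM against 22.9, 6.08 and 3.87 (-2.84 ± 1.10, 0.16). The groups did not overlap in either gene. Alx4, a mesenchymal gene, had 22.1, 6.19 and 12.7 CPM in muscle and 0.223, 5.95 and 2.63 in epithelium (2.24 ± 0.98, 0.23), again without overlap. Hopx, a small homeodomain protein that does not bind DNA, differed by less than its spread, with 14.6, 4.04 and 11.6 CPM against 5.74, 7.28 and 8.19 (adjusted p = 0.79). Pax1, which shapes the vertebral column, had at most 1.30 CPM in any library.

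The LIM-class genes Isl1 and Lhx6 passed in opposite directions. Isl1, which takes part in the separation of trachea and oesophagus, had 48.6, 15.4 and 17.2 CPM in muscle and 166, 76.1 and 89.2 in epithelium. Every epithelial library was above every muscle library (-2.03 ± 0.50, SE, adjusted p = 0.031, edgeR), and within each group replicate 1 was the highest. Isl1 lost its call without muscle replicate 2, muscle replicate 3 or epithelium replicate 1 (adjusted p up to 0.10). Isl1 also marks neurons. Of the 9 neural and glial marker genes 1 passed, Erbb3, toward epithelium. Their summed level was 44.5 to 82.2 CPM in the muscle libraries and 131 to 155 in the epithelial libraries. Without Erbb3 the other 8 summed to 35.5 to 66.1 CPM in muscle and 37.0 to 78.1 in epithelium, which overlap. Stmn2 had higher values in every muscle library and did not pass (log2 fold change 1.53 ± 0.56, edgeR adjusted p = 0.13). Ret went the other way, with higher values in every epithelial library, and did not pass either (-2.53 ± 0.89, edgeR adjusted p = 0.12). The part of neural cells in the result was not tested.

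Lhx6, known from interneurons and the first branchial arch, had 15.7, 9.14 and 16.7 CPM in muscle and 2.66, 4.01 and 2.07 in epithelium (2.25 ± 0.50, edgeR adjusted p = 0.021). Without muscle replicate 1, muscle replicate 3 or epithelium replicate 3 its call was lost (adjusted p up to 0.15). Lhx2, a gene of forebrain and hair follicles, had at most 3.29 CPM, in muscle replicate 2, and 0 in epithelium replicate 1.

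Six4, whose product works with Eya coactivators, was higher in epithelium, with 41.7, 20.4 and 22.9 CPM in muscle and 74.2, 66.2 and 65.2 in epithelium (-1.27 ± 0.30, SE, adjusted p = 0.028, edgeR). Its call was lost without muscle replicate 3 or epithelium replicate 1 (adjusted p up to 0.12). Muscle replicate 1 was the highest of its group. Six4 also acts in skeletal muscle. Of the 9 skeletal muscle markers 2 passed, Actc1 and Acta1, both toward muscle. Their summed level was 293 to 1446 CPM in the muscle libraries and 6.52 to 44.6 in the epithelial libraries. Most of the sum in muscle came from Actc1 (722, 204 and 948 CPM) and Acta1 (379, 70.7 and 315). The other 7 markers, among them Myog (edgeR adjusted p = 0.093), did not pass. The part of skeletal muscle cells in the values of Six4 was not tested.

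Of the NK-like genes, Hhex alone passed, and its level differed widely between the epithelial libraries. Hhex, a gene of foregut endoderm, thyroid and endothelium, had 0.076, 0.649 and 1.04 CPM in muscle and 123, 0.936 and 6.38 in epithelium. Epithelium replicate 2 was thus under muscle replicate 3. The log2 fold change of -6.17 ± 1.68 passed (adjusted p = 0.0496, edgeR), and Hhex passed in 3 of 15 alternative fits. When libraries were left out in turn, it passed only without epithelium replicate 2, and its adjusted p reached 0.51 without epithelium replicate 1. Krt5, a basal keratin picked after its value was seen, had 19.5 CPM in epithelium replicate 1 and 0.334 and 0.526 in replicates 2 and 3. Pax8, a member known from thyroid and kidney, was also highest in epithelium replicate 1, with 0, 1.05 and 0 CPM in muscle and 8.62, 5.75 and 3.46 in epithelium (edgeR adjusted p = 0.27). Of the 10 endothelial markers 1 passed, Esam, toward muscle, and their sum was 75.8 to 108 CPM in muscle and 14.3 to 78.3 in epithelium, lowest in epithelium replicate 1. In muscle the largest values were those of Tek (34.6, 26.6 and 32.9 CPM) and Esam (28.85, 20.42 and 28.82). Epithelium replicate 1 also had the fewest background counts, in 3.02% of the receptor genes, so its low sum is not a clear measure of endothelial cells. The part of other cell types in the level of Hhex was not tested.

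The other NK-like genes did not pass. Nkx6-1 had 8.21, 2.80 and 11.7 CPM in muscle and 0.167, 1.60 and 1.35 in epithelium (2.87 ± 1.06, edgeR adjusted p = 0.14). Dlx5, a bone and branchial arch gene, had 8.51, 8.34 and 6.70 CPM against 2.86, 3.88 and 3.27 (1.24 ± 0.57, 0.26), and Dlx3 had 4.94, 4.54 and 1.67 against 7.96, 10.2 and 5.97 (-1.11 ± 0.64, 0.40). The groups did not overlap in these 3 genes. Msx1 and Msx2, which respond to BMP in many tissues, overlapped between the groups, with adjusted p of 0.95 and 0.58. Nkx2-5, a heart and spleen gene, had 8.81 CPM in epithelium replicate 1 and under 2 in every other library, and did not pass (adjusted p = 0.37). Barx1, a regulator of stomach mesenchyme, had at most 3.29 CPM (muscle replicate 2), and Barx2 (adjusted p = 0.79) and Nkx3-2 (0.91) were also low.

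None of the 7 cut-class genes passed. Cux1 had 71.5, 58.0 and 73.9 CPM in muscle and 146, 92.0 and 92.0 in epithelium without overlap (-0.70 ± 0.26, edgeR adjusted p = 0.15). Satb1, a chromatin organiser, had 15.4, 17.6 and 16.8 CPM against 19.4, 18.4 and 10.6, and its adjusted p was 0.98.

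**Figure D3:**
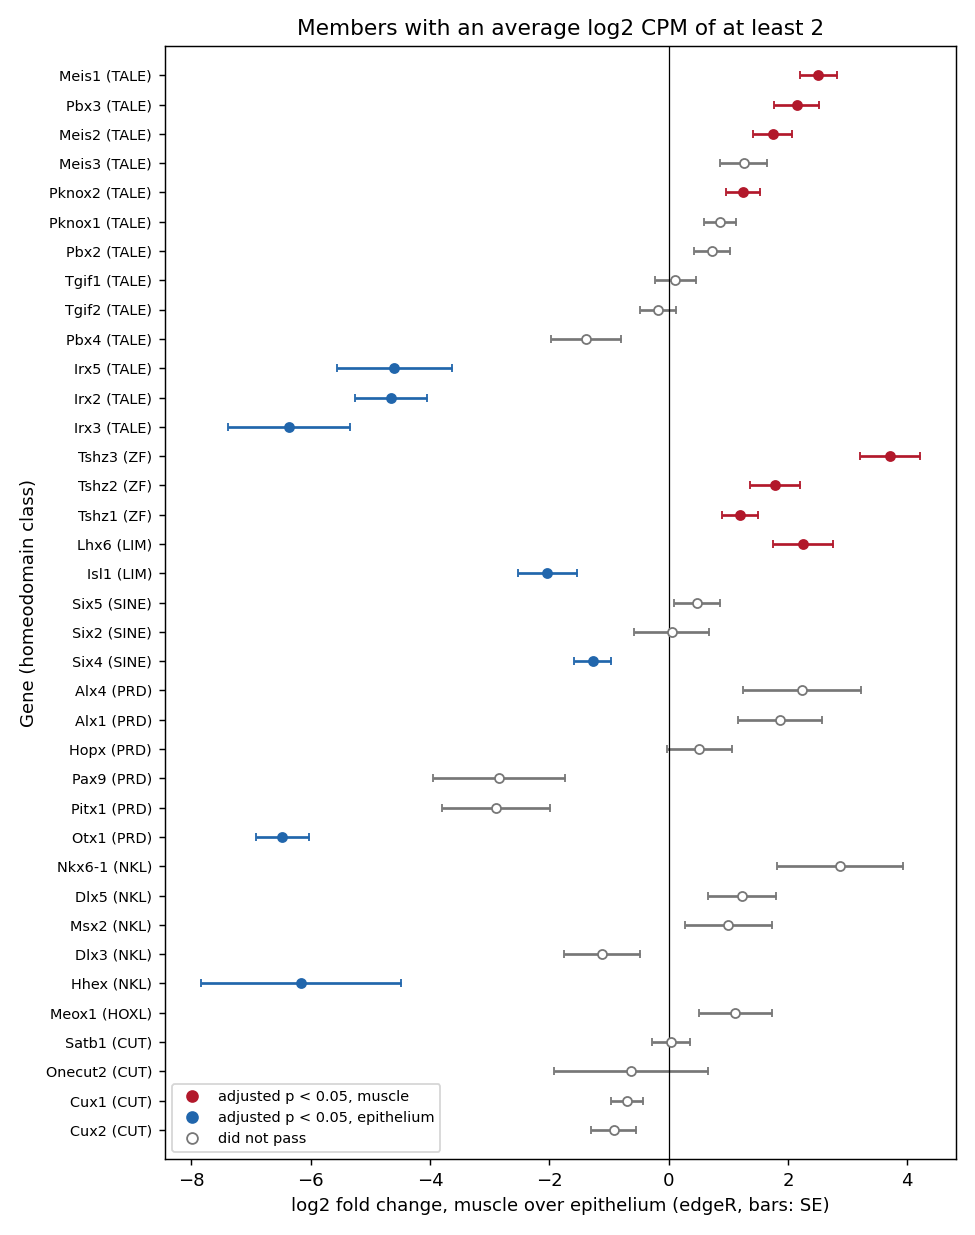
Log2 fold change of muscle over epithelium with its SE (edgeR) for 37 of the 41 members whose average log2 CPM was 2 or more, grouped by homeodomain class. Filled red and blue points passed toward muscle and epithelium, and open points did not pass. The Irx genes, Otx1 and Hhex lie farthest toward epithelium, and Tshz3 farthest toward muscle.

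Many members did not exceed the background counts in a full set of libraries. A member was taken to be above background in a library when it had more than 3 counts and a CPM over the 99th percentile of the receptor genes there, which ran from 0.149 CPM in epithelium replicate 1 to 5.61 in epithelium replicate 2. 28 members were above it in every library, 10 in all muscle but not all epithelial libraries, 8 in all epithelial but not all muscle libraries and 48 in neither full set. 17 were above it in no library. Over all 23478 genes these counts were 11456, 1440, 673 and 9909, in the same order, with 5987 above it in no library. In 26 of the 85 tested members, the 3 libraries with many background counts were all above the other 3. Over all tested genes the share was 28.4%, so the members are near it.

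24 of those 26 members had an average log2 CPM under 2, among them Six3, Otx2, Lhx1 and Pax3, genes of the nervous system named after their values were seen. The higher of them included Onecut2. Onecut2, a gene of liver, pancreas and neurons, had 1.14, 20.4 and 0.657 CPM in muscle and 1.23, 20.9 and 12.1 in epithelium. Its difference between the populations was smaller than that between libraries of a group (edgeR adjusted p = 0.92).

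**Figure D4:**
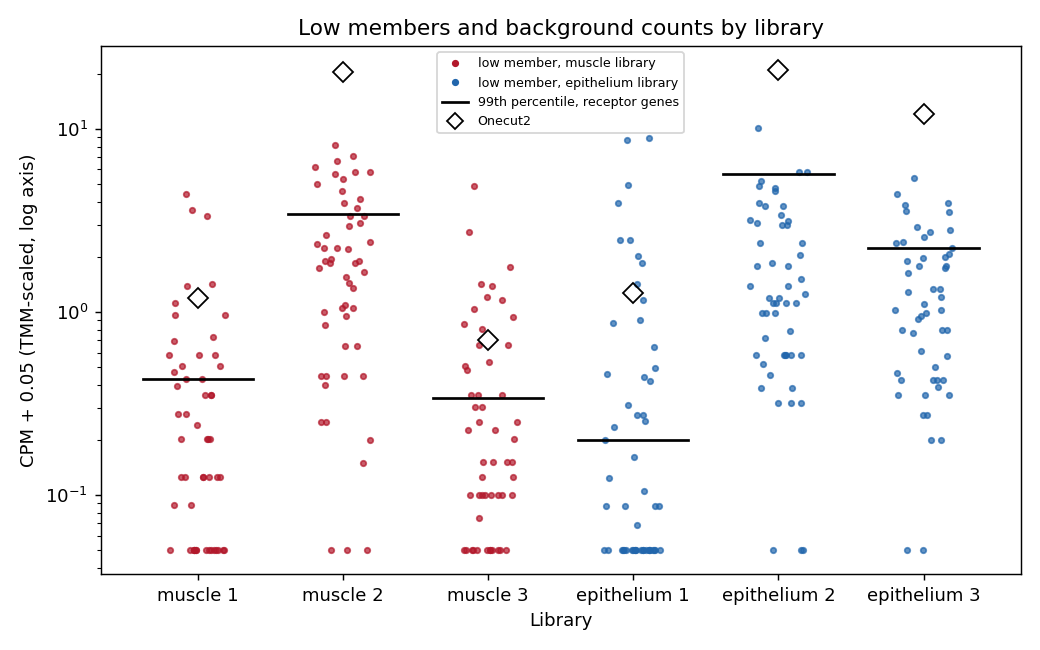
CPM + 0.05 on a log axis in each of the 6 libraries for the 53 members with an average log2 CPM under 2 or not tested (points), with the 99th percentile of 1456 receptor genes (line) and Onecut2 (diamond). The line and the points are higher in muscle 2, epithelium 2 and epithelium 3, and Onecut2 follows them.

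Other homeobox genes, from a list of 86 symbols outside the Hox clusters and outside the member families, were tested in the same fit. Of 62 tested, 5 passed toward muscle and 2 toward epithelium, and 9 had an unadjusted p under 0.05. Together 11.3% passed, near the 10.7% of all tested genes. Those higher in muscle were Zeb2 (log2 fold change 3.98 ± 0.63, SE, adjusted p = 0.0042), Zeb1 (3.90 ± 0.71, 0.0088), Prrx1 (3.16 ± 0.66, 0.017), Prrx2 (2.92 ± 0.66, 0.022) and Zfhx3 (1.64 ± 0.31, 0.011). Zeb1 and Zeb2 repress epithelial genes such as Cdh1, and Prrx1 and Prrx2 mark limb and facial mesenchyme. Those higher in epithelium included Zfhx2 (-1.67 ± 0.39, edgeR adjusted p = 0.025). When libraries were left out in turn, Zeb2 alone of the 7 passed in all 6 fits, and Zeb1 and Zfhx3 in all but the one without epithelium replicate 3 (adjusted p = 0.058 and 0.063). Zeb1 also did not pass with a covariate for background counts (0.052). Prrx1, Prrx2 and Zfhx2 were each lost without muscle replicate 1, muscle replicate 3 or epithelium replicate 3, Prrx1 also without muscle replicate 2 and Zfhx2 also without epithelium replicate 1.

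Genes whose products partner homeodomain proteins were drawn from a list of 26 symbols. In the test, 2 of 25 passed toward muscle and 5 toward epithelium, 28.0% together, against 6.58%, 4.11% and 10.7% of all tested genes. Most partner genes had an average log2 CPM of 2 or more, where 16.2% of all genes passed. Of the 7 Eya, Dach and Sobp genes, whose products act with proteins such as Six4, 3 passed, toward epithelium (Eya1, Eya2 and Dach2), and 4 did not. Those were Eya3 (log2 fold change -0.43, edgeR adjusted p = 0.39), Eya4 (-0.10, 0.96), Dach1 (-0.18, 0.97) and Sobp (0.73, 0.86). Eya1 had 7.22, 8.19 and 2.25 CPM in muscle and 51.8, 30.8 and 39.1 in epithelium (-2.79 ± 0.47, SE, adjusted p = 0.0060, edgeR). Dach2 had 7.18, 3.69 and 4.63 CPM against 28.4, 20.8 and 31.4 (-2.38 ± 0.36, adjusted p = 0.0035). Neither overlapped, and both passed in all 6 fits without a library.

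Eya2 (-2.84 ± 0.65, edgeR adjusted p = 0.024) was also higher in epithelium. It lost its call without replicate 1 or 3 of muscle or replicate 2 or 3 of epithelium (adjusted p up to 0.082). Smad3 and Tle3, named after their values were seen, were the other partner genes higher in epithelium. Toward muscle, Ldb2, a LIM-domain-binding cofactor, passed with 2.38 ± 0.50 (log2 fold change, adjusted p = 0.016) and was lost without epithelium replicate 3 (0.053). Pbxip1, which encodes a protein that binds Pbx proteins, had 314, 109 and 299 CPM in muscle and 100.4, 78.5 and 77.7 in epithelium (1.49 ± 0.39, edgeR adjusted p = 0.040). It did not pass (adjusted p up to 0.17) without replicate 1 or 3 of muscle or replicate 2 or 3 of epithelium.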

How the data were processed

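RNA of 6 sorted-cell libraries was made into cDNA with SMART-Seq v4 and Nextera XT, per the labels' protocols. The submitters' processing notes name Trim Galore, Bowtie2, Cufflinks, DESeq and mm10, without versions or roles; the counting program and annotation are not given in the sources used here. The deposited values are whole-number counts, with 23478 gene symbols. No molecular identifiers or strand are stated, so counts may include PCR copies. Even numbers made up 73.8% to 79.6% of the counts from 1 to 19 in a library; the cause was not tested, and a floor of 3 counts may stand for fewer fragments. Intervals were not computed. The floor of 3 counts per library was a set value and does not bound counting error or differences between libraries.

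Counts were filtered with filterByExpr, scaled by TMM (trimmed means of M-values) and tested two-sided with edgeR 4.0.16 (R 4.3.3, robust quasi-likelihood, without covariates); p was adjusted over 19375 genes (Benjamini-Hochberg). The fit was tested on simulated data. CPM used TMM-scaled library sizes. SE came from the test statistic. An exact permutation test of 3 against 3 libraries cannot go below 0.1. Genes named were all members past the threshold, members fixed for the tissue, members of average log2 CPM 2 or more whose groups do not overlap, members with a library over 5 times the median of the others and over 10 CPM, and the largest changes in the other lists. A few genes that the rule names are not reported here. Members and lists were chosen with earlier results of these data known. Gene positions came from GENCODE vM21. Promoters, of RefSeq, were matched for 61 of the 94 members. Of the listed other markers, 4 of 6 tested oesophageal genes (Krt15, Trp63, Sox2 and Klf5) were called toward epithelium. Krt5 (edgeR adjusted p = 0.20) and Krt14 (0.68) were not called. Of the mesothelial genes 1 of 6 was called toward epithelium, Krt19, which is also on the epithelial list. Cartilage (5 of 10) and endothelial (1 of 10) genes were called toward muscle. Erythroid (0 of 5) and immune (0 of 7) genes were called in neither direction, with 0 at an unadjusted p under 0.05 in edgeR. Alternatives included DESeq2 1.42.0 and limma 3.58.1 (voom).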

Additional observations from a re-analysis of the deposited data

How the results depend on the processing

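Members higher in muscle numbered 6 to 11 and members higher in epithelium 3 to 8 when the 6 libraries were left out in turn, and 5 and 3 at an adjusted p under 0.01. With library size only they were 7 and 8, with the later of the header dates (read from identifiers, 2 libraries per group) 12 and 10, with the date as a term 12 and 7, and with DESeq2 13 and 11. Otx1, Irx2, Meis1, Meis2, Pbx3 and Tshz3 passed in all 15 alternative fits. Irx3 missed with a covariate for background counts (adjusted p = 0.057). Irx6 missed with no filter (0.054) and with limma-voom (0.11), Lhx6 (0.062), Pknox2 (0.099) and Tshz2 (0.088) with library size only, Tshz2 with RLE scaling (0.054), and Isl1 (0.059) and Six4 (0.057) with the later date only. Over all tested genes, log2 fold changes had a median of -0.10 with TMM, -0.20 with RLE scaling and -0.33 with library size only, which moved the share of all calls that are higher in muscle from 61.5% to 42.0%.

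Other homeobox genes higher in muscle numbered 1 to 5 without a library and 2 at 0.01. Those higher in epithelium numbered 0 to 2 without a library, 0 with library size only and at 0.01, and 1 with no filter, the replicate block or the background covariate. Partner genes higher in muscle numbered 0 to 2 without a library, 1 with library size only, and 0 with the replicate block and at 0.01. Those higher in epithelium numbered 2 to 5 without a library, 8 with library size only and 2 at 0.01. The cause was not tested.

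Replicate numbers were not shown to pair the libraries. Deviations from the group mean correlated at 0.54, 0.63 and -0.34 for numbers 1 to 3, and 3 of 6 libraries correlated best with their own number. Replicate 2 of each population was the library with the earlier header date, so its number and that date cannot be told apart. With the number as a replicate block, 11 members were higher in muscle and 7 in epithelium, of which 9 and 6 were among those called without the block. Lhx6 (adjusted p = 0.051), Irx6 (0.051), Hhex (0.34), Zeb1 (0.055), Ldb2 (0.064), Pbxip1 (0.051) and Eya2 (0.067) lost their calls with it.

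Of the genes described, signs changed in some that did not pass. The Satb1 log2 fold change was -0.0715 with RLE scaling, -0.0711 with DESeq2, -0.21 with library size only and -0.30 to 0.22 without a library. The Tgif1 log2 fold change was -0.0302 with RLE scaling, -0.0294 with DESeq2, -0.20 with library size only, -0.00517 with the background covariate and -0.20 to 0.39 without a library. Without a library, the Tgif2 log2 fold change was -0.38 to 0.0647 and the Onecut2 log2 fold change -3.65 to 0.27. The Lhx2 log2 fold change was -0.63 with the date as a term and -1.91 to 1.38 without a library.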
